A study of Drosophila melanogaster with 8 samples.

Results

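The regions described here are CAGE tag clusters (TCs) in the centromere-proximal ends of 4 long chromosome arms of D. melanogaster S2 cells. The ends were taken as chr2L above position 22000000, chr3L above 22950000, chr3R below 400000 and chrX above 21900000 of the dm3 assembly. CAGE (Cap Analysis of Gene Expression) reads the capped 5′ end of RNA, and a TC is a group of neighbouring tag 5′ ends on 1 strand, here merged within 20 bp, trimmed at 0.1 of its highest position and kept where it averaged 0.3 TPM (tags per 1000000 tags of its library) or more over the 8 libraries. Of 13638 TCs of any level in the ends, 1253 reached that level, 2.13% of the 58844 TCs that did so genome-wide. They comprised 526 TCs on 2L, 281 on 3L, 348 on 3R and 98 on X. The rule uses position and mean level only, but a TC high in 1 group alone can reach the level, so that the filter is not independent of the change: 529 members averaged 0.3 TPM or more in the libraries labelled control alone and 84 in the libraries labelled exosome knockdown alone.

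S2 is an established cell line derived from fly embryos, and since TCs were not annotated to genes here its cell type was not checked against marker genes. Total RNA came from cells given double-stranded RNA against Dis3 and Rrp6, the catalytic subunits of the ribonucleolytic exosome, or against GFP as a control, in 4 biological replicates each. The 4 libraries labelled control carried library sizes that matched the KD columns of the study's own expression table, and the 4 libraries labelled exosome knockdown matched its GFP columns, each of 8 columns to within 0.1%. Labels and table therefore run in opposite directions. Libraries are called here by their labels, fold changes are those of the libraries labelled control over the libraries labelled exosome knockdown, and the transcripts of the depleted subunits were not looked up. Library totals were 36806292 to 46388382 tags in the libraries labelled control and 33565925 to 43903483 tags in the libraries labelled exosome knockdown.

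Pericentric heterochromatin flanks the centromere of each fly chromosome. It is rich in transposons and satellite repeats, carries the H3K9 methyl mark bound by HP1, and holds comparatively few genes, many of them long and some of them dependent on the heterochromatic setting for their expression. The exosome degrades RNA from its 3′ end in the nucleus and cytoplasm, and short unprocessed transcripts such as promoter upstream transcripts and enhancer RNAs are among its known substrates. Only reads with a unique position were counted, so that repeats with many copies contributed few tags.

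TCs in the ends of 2L, 3L and X were far more often higher in the libraries labelled control than TCs elsewhere, and those in the end of 3R were more often lower. Genome-wide, edgeR called 28.2% of TCs higher and 16.5% lower at an adjusted p under 0.05. In the ends 683 of 1253 members (54.5%) were higher and 131 (10.5%) were lower, with a median log2 fold change of 1.39, against 0.03 over all TCs. On 2L, 371 of 526 members were higher and 13 lower, with a median log2 fold change of 2.65. On 3L, 209 of 281 were higher and 8 lower, with a median of 2.90. On X, 51 of 98 were higher and 5 lower, with a median of 1.48. On 3R only 52 of 348 were higher and 105 lower, with a median of −0.41. The median of all TCs moved to no more than 0.08 under library totals alone or DESeq2 scaling.

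The rest of each arm gave a common background that the ends departed from. Between 25.6% and 27.6% of TCs outside the ends were higher on the 4 arms, and between 14.6% and 18.9% were lower. By comparison, 70.5%, 74.4% and 52.0% of members were higher in the ends of 2L, 3L and X, and 30.2% were lower in the end of 3R. No test was made of the ends against the rest of the arms. Chromosome 4, with 57.1% of 836 TCs higher, and the separately assembled heterochromatic scaffolds, with 75.9% of 726 TCs higher, lay nearer to the ends of 2L, 3L and X. The share of a TC's mean level in the libraries labelled control that was missing from the libraries labelled exosome knockdown (set to 0 where none was missing) had a median of 0.848 on 2L, 0.875 on 3L and 0.657 on X, 0 on 3R and 0.0509 over all TCs. Turned round, the share of the level in the libraries labelled exosome knockdown that was missing from the libraries labelled control had a median of 0.222 on 3R and 0 on 2L, 3L, X and over all TCs.

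**Figure D1:**
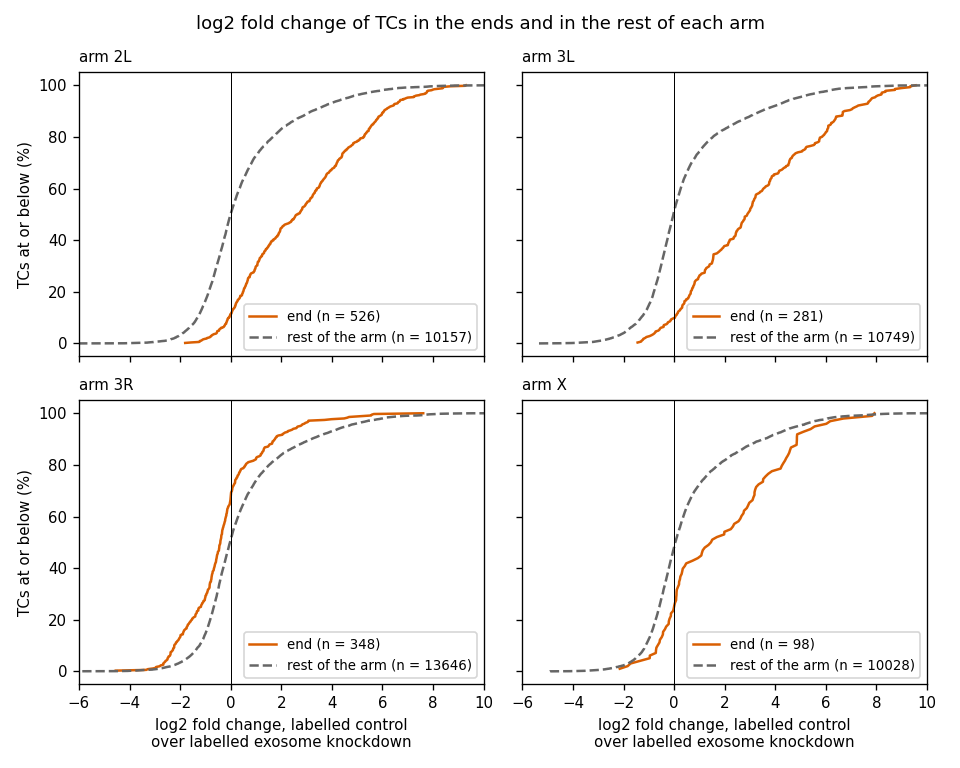
Cumulative share of TCs (vertical axis, %) at or below each log2 fold change, labelled control over labelled exosome knockdown (horizontal axis), in the end (solid) and the rest (dashed) of each arm. The end curves of 2L, 3L and X lie to the right of the rest of the arm, with medians of 2.65, 2.90 and 1.48, and that of 3R lies to the left of it, with a median of −0.41.

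Non-overlap of the groups gave the same order. Genome-wide, 26.9% of TCs had every library labelled control above every library labelled exosome knockdown, and 14.5% had the opposite. Among members these shares were 50.5% and 8.70%. On 3R, 47 members had all libraries labelled control above and 92 had them all below, whereas on 2L the counts were 345 and 7. The level filter bears on these counts, since a TC can pass it through 1 group alone. Of the members, 640 averaged 0.3 TPM or more in both groups. Among those at 0.3 TPM in both groups, 50% of 242 were higher on 2L, 46.4% of 110 on 3L, 23.5% of 51 on X and 10.5% of 237 on 3R, beside 14.9% of 39840 genome-wide. Their median log2 fold changes were 0.78 on 2L, 0.76 on 3L, 0.10 on X and −0.34 on 3R, against −0.14 genome-wide. On 2L, 3L and X these medians were much nearer to 0 than the medians over all members of the end. The 3R median differed little from the −0.41 over all its members. Of the 237 on 3R, 26.6% were lower, beside 17.03% of the 39840 genome-wide and 30.2% of all 348 members on 3R.

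The libraries of a group resembled each other in the share of members they reached. Since 0.3 TPM is also the level of the rule, and 279 members on 2L and 168 on 3L met it in the libraries labelled control alone, the rule fixes part of the difference between the groups, and these shares are a description. On 2L, 95.4%, 91.6%, 97.1% and 90.9% of members stood at 0.3 TPM or more in libraries labelled control 1 to 4, against 47.5%, 41.8%, 46.0% and 49.4% in libraries labelled exosome knockdown 1 to 4. On 3L the shares were 94.7%, 91.5%, 97.9% and 84.3% in the libraries labelled control, against 39.9%, 34.5%, 39.5% and 38.4% in the libraries labelled exosome knockdown. The groups stood far apart on both arms, while in the rest of the arms the shares lay between 77.0% and 88.0% in the libraries labelled control, against 68.2% to 80.1% in the libraries labelled exosome knockdown. On X the ranges were 75.5% to 91.8% in the libraries labelled control, against 48.0% to 60.2% in the libraries labelled exosome knockdown. On 3R the mean was the lower of the pair in the libraries labelled control, at 68.1% to 81.0%, against 80.5% to 85.9% in the libraries labelled exosome knockdown, and the ranges overlapped.

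**Figure D2:**
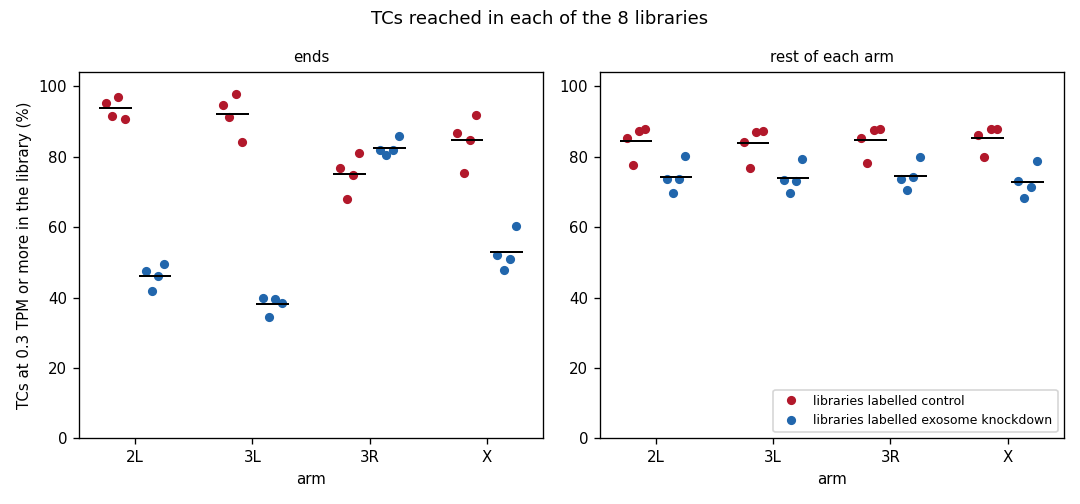
Share of TCs at 0.3 TPM or more (vertical axis, %) in each library, for the ends and for the rest of the 4 arms, with libraries labelled control left of libraries labelled exosome knockdown in each pair and a bar at the mean of 4. Members on 2L reached 90.9% to 97.1% in the libraries labelled control, against 41.8% to 49.4% in the libraries labelled exosome knockdown, and on 3R the second group had the higher mean. The same 0.3 TPM, as a mean over the 8 libraries, chose the TCs, which fixes part of the difference.

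Tags inside and outside the strongest TCs were summed apart. In the 2L end, tags outside TCs of 10 TPM or more summed to 3582, 3365, 3959 and 3384 TPM in libraries labelled control 1 to 4, against 1036, 1033, 1062 and 1033 TPM in libraries labelled exosome knockdown 1 to 4. The groups were far apart beside the spread within them, and the ratio of their means was 3.43. Tags inside the TCs of 10 TPM or more in the same end spanned 7093 to 9750.0 TPM in the libraries labelled control, against 4608 to 9789.8 TPM in the libraries labelled exosome knockdown, and overlapped, with a ratio of 1.17. A single TC, chr2L:22429376-22429380, held much of that sum, and without it, an alternative chosen after the data were seen, the sums were 6003 to 6270.4 TPM in the libraries labelled control, against 2718 to 3202 TPM in the libraries labelled exosome knockdown, with no overlap and a ratio of 2.07. The corresponding ratios outside and inside strong TCs were 2.49 and 1.32 on 3L, 2.25 and 1.27 on X, and 0.853 and 0.664 on 3R. In the rest of the arms the ratio outside strong TCs was 1.07 to 1.14, and that inside them was 0.841 to 0.911. All tags in the ends made up 1.96% ± 0.142 of the libraries labelled control and 1.59% ± 0.209 of the libraries labelled exosome knockdown (SD, n = 4 each), and these values overlapped between the groups. As a share of the tags on the 4 arms they did not overlap, at 2.56% to 2.94% in the libraries labelled control, against 1.78% to 2.40% in the libraries labelled exosome knockdown.

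Level classes separated the pooled ends of 2L, 3L and X from the end of 3R in the same manner. In the ends of 2L, 3L and X, 66.8% of 500 members under 1 TPM, 76.0% of 312 members of 1 to 10 TPM and 64.5% of 93 members of 10 TPM or more were higher. Outside the ends of those arms the shares were 26.6%, 30.7% and 18.6%. Of the 93 strong members 63 were on 2L, with 69.8% higher, and 23 on 3L, with 60.9% higher. On X the shares were lower, at 54.2% of 59, 53.1% of 32 and 2 of 7. Of the 38 strong members on 3R, 1 was higher and 19 were lower (50%), whereas 32.9% of strong TCs in the rest of 3R were lower. The fold change of strong members in the ends of 2L, 3L and X was smaller than that of weak ones, with a median log2 value of 0.95 for TCs of 10 TPM or more, against 2.67 for TCs under 1 TPM. By arm, the median of the strong members was 1.38 on 2L, 0.66 on 3L and 0.23 on X.

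In the ends of 2L, 3L and X the share of members called higher was similar at each distance from a strong TC, while the median fold change was larger farther away. Of weaker members under 500 bp from a TC of 10 TPM or more, 69.0% of 213 were higher, against 69.3% of 309 at 500 bp to 5 kb and 72.4% of 290 at 5 kb or more. Their median log2 fold changes were 1.93, 2.89 and 3.21. In the rest of those arms 26.0%, 26.3% and 34.3% of weaker TCs were higher at the same distances. Their medians there were −0.04, 0.01 and 0.30, so that a rise with distance was not particular to the ends. A larger share of the weaker members lay 5 kb or more from a strong TC in these ends (35.7%) than in the rest of the arms (20.4%). On 2L, where 46 DNase I hypersensitive sites (DHSs) of the 1754 listed for the arm lie beyond the boundary, 28.3% of members had a summit within 500 bp of a listed midpoint, against 40.8% of TCs in the rest of 2L. Both kinds of member were mostly higher, 67.8% of 149 near a listed DHS and 71.6% of 377 farther away, with median log2 fold changes of 1.63 and 3.19. In the rest of 2L the shares were 37.0% near a listed DHS and 19.9% farther away.

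Members were not spread evenly. The ends span 1.01 Mb on 2L, 1.59 Mb on 3L, 0.400 Mb on 3R and 0.522 Mb on X up to the last tagged position or the start of the assembly, which gives 521, 177, 870.0 and 188 members per Mb. The rest of the arms had 458 to 496 TCs per Mb. The 3L and X ends were thus sparse, with empty stretches of up to 114 kb and 106 kb between members, and the 3R end was the densest of the 4.

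The share of members that were higher was greatest in the inner stretches of 3L and 2L. On 3L, 54.3% of 35, 51.5% of 33 and 44.0% of 25 members were higher in successive stretches of 100 kb beginning 100 kb beyond the boundary, and from 400 kb onwards 73.3% to 100% were higher in each 100 kb. Many of these inner stretches held few members, and those with 100% held 13, 8, 2, 7 and 1. On 2L, 190 members lay 100 to 200 kb beyond the boundary with 70% higher, 65 lay at 400 to 500 kb with 43.1% higher and 13.8% lower, and 93 lay at 800 to 900 kb with 91.4% higher and 0 lower. On X, the 22 members of the first 100 kb had 27.3% higher, all 14 members at 200 to 300 kb were higher, and 60% of 45 at 300 to 400 kb were higher. The last 2 stretches of X held 14 members, of which 3 were higher. In the 1 Mb before each boundary 27.7% to 33.1% of TCs were higher, near the genome-wide 28.2%, although single stretches there reached more.

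The 3R end ran the other way. Beyond its boundary 34.0% of 53 members were higher and 7.55% lower in the first 100 kb. At 100 to 200 kb 31.1% of 161 members were lower, at 200 to 300 kb 48.6% of 37 and at 300 to 400 kb 34.0% of 97, and the share that was higher fell to 5.41% and 6.19% in the last pair of stretches.

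**Figure D3:**
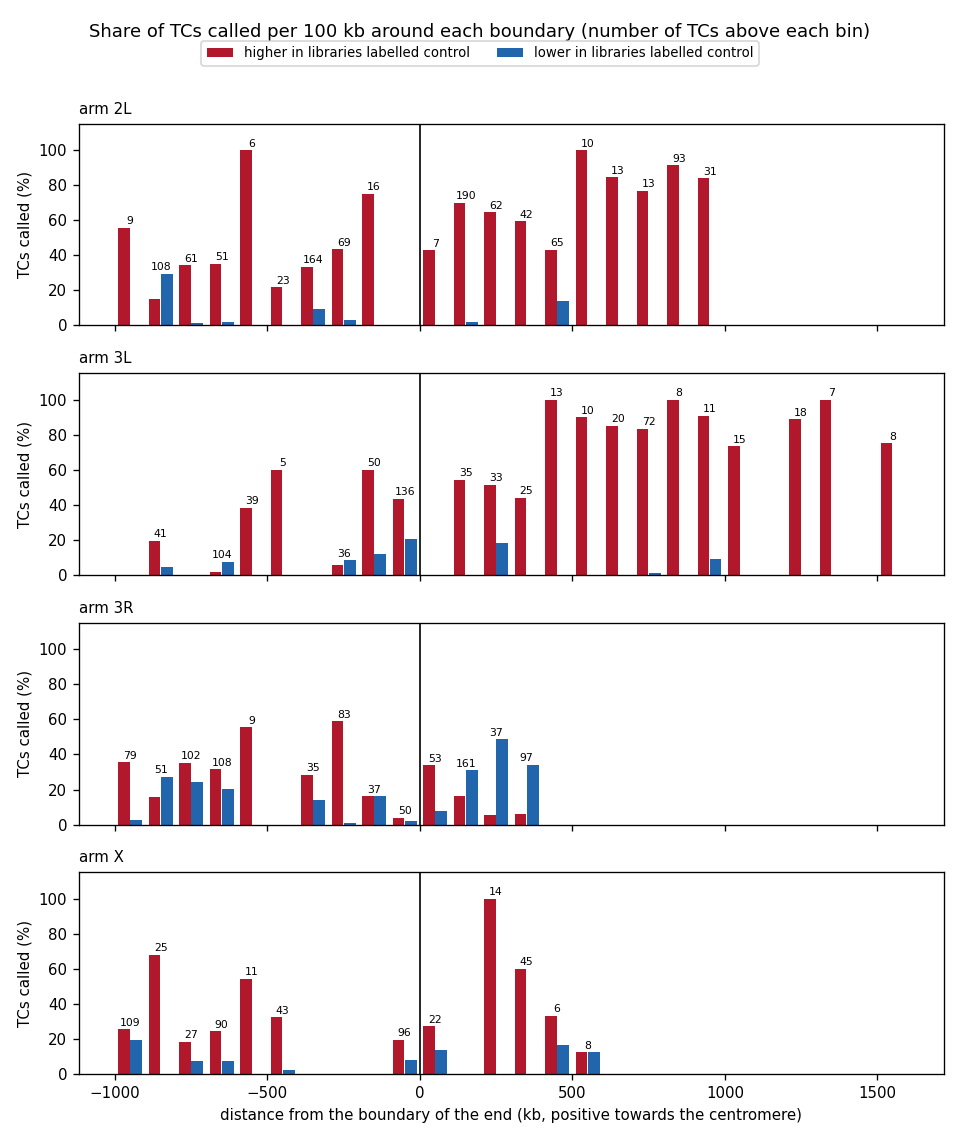
Share of TCs (vertical axis, %) that edgeR called higher or lower in the libraries labelled control per 100 kb, against distance from the boundary of each end (horizontal axis, kb, positive towards the centromere), with the number of TCs above each bin; bins of fewer than 5 TCs are left out. On 3L 73.3% to 100% were higher in the bins from 400 kb onwards, and on 3R the lower calls outnumber the higher ones from 100 kb onwards.

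Many members had close neighbours on their strand. Runs of 5 or more members on a strand, each summit within 1 kb of the next, numbered 39 on 2L, 18 on 3L, 23 on 3R and 6 on X and held 348, 123, 209 and 39 members. Every member was higher in 17 runs on 2L, 7 on 3L, 3 on X and 1 on 3R, and every member was lower in 2 runs on 3R. These counts stand beside the 70.5%, 74.4%, 52.0% and 14.9% of all members that were higher on 2L, 3L, X and 3R, and runs elsewhere were not counted. These runs and the ones named below were chosen after their values had been seen.

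Several runs on both strands lay close together near the inner limit of the 2L end at chr2L:22813018-22822333, where 59 members filled 9.32 kb, 30 on the plus strand and 29 on the minus strand. Of these, 58 were higher and 0 lower. Their plus strand levels summed to 803, 769.6, 701 and 731 TPM in libraries labelled control 1 to 4, against 183, 153, 179 and 125 TPM in libraries labelled exosome knockdown 1 to 4. Minus strand levels summed to 72.4, 81.3, 139.5 and 48.6 TPM in the libraries labelled control, against 5.53, 6.20, 3.69 and 2.54 TPM in the libraries labelled exosome knockdown. The ratio of the summed means was 4.69 on the plus and 19.0 on the minus strand, and the groups did not overlap on either.

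The 1 member of that cluster that was not called was its second strongest TC, chr2L:22817520-22817579 (plus strand). It had 129, 91.9, 58.0 and 128 TPM in libraries labelled control 1 to 4, against 126, 92.0, 105 and 86.5 TPM in libraries labelled exosome knockdown 1 to 4, and gave a log2 fold change of −0.05 ± 0.25 (SE) with an edgeR adjusted p of 0.900. Its groups overlapped fully. The strongest TC of the cluster, chr2L:22813996-22814017 (plus strand), had 366, 361, 322 and 365 TPM in the libraries labelled control, against 25.8, 30.5, 37.0 and 17.6 TPM in the libraries labelled exosome knockdown. All 4 of the first lay far above any of the second, with a log2 fold change of 3.62 ± 0.26 (SE, edgeR adjusted p = 1.87e-06).

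**Figure D4:**
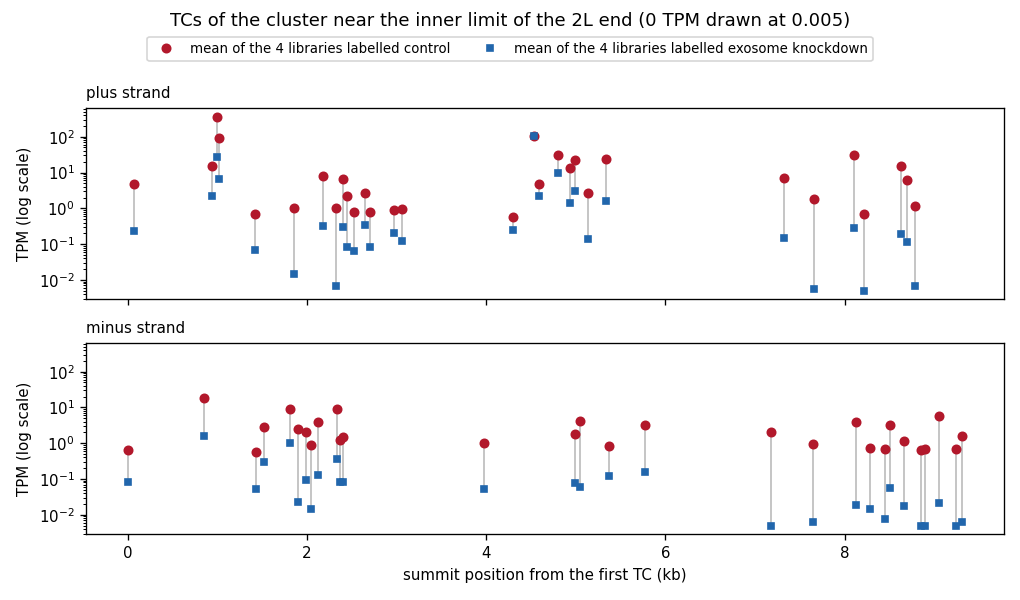
Mean TPM (vertical axis, log scale) of the 59 TCs of the cluster at chr2L:22813018-22822333 against summit position from its first TC (horizontal axis, kb), plus strand above and minus strand below, with circles for the 4 libraries labelled control, squares for the 4 libraries labelled exosome knockdown and a grey line joining the pair; means of 0 are drawn near the bottom of the axis. The circle and square coincide at 102 TPM for a single plus strand TC at 4.54 kb and are apart for the other 58.

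Other runs in which every member was higher lay on both strands of the same stretch. At chr2L:22190566-22192484 a plus strand run of 14 members summed to 211, 223, 209 and 197 TPM in libraries labelled control 1 to 4, against 19.5, 21.5, 22.4 and 21.3 TPM in libraries labelled exosome knockdown 1 to 4. The minus strand of that stretch holds chr2L:22192046-22192111, the strongest member on 2L that rose 4-fold or more, which was singled out after its values were seen. It had 542, 539, 569 and 484 TPM in the libraries labelled control, against 37.9, 53.7, 50.1 and 42.1 TPM in the libraries labelled exosome knockdown. Its log2 fold change was 3.49 ± 0.20 (SE, edgeR adjusted p = 9.38e-07). Neither strand had overlapping groups, and the nearest listed DHS midpoint was 9460 bp from this summit.

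On 3L a plus strand run of 11 members at chr3L:23673772-23674718 summed to 22.9, 30.1, 50.5 and 15.8 TPM in libraries labelled control 1 to 4, against 0.410, 0.775, 0.338 and 0.301 TPM in libraries labelled exosome knockdown 1 to 4. On X a pair of overlapping runs on opposite strands at chrX:22248577-22250479 and chrX:22248621-22249856 held 9 and 6 members, all of them higher, with ratios of the summed means of 9.96 and 10.5. Their groups did not overlap.

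Of the 23 runs on 3R, 13 had more lower than higher members, 6 had more higher than lower ones and 4 had no call. In the one with the most members, chr3R:61939-66015 on the plus strand, 21 of 23 members were lower and 0 higher, and the sums were 43.0, 36.0, 25.1 and 48.2 TPM in libraries labelled control 1 to 4, against 65.6, 94.7, 112 and 69.7 TPM in libraries labelled exosome knockdown 1 to 4. All 10 members of a minus strand run at chr3R:291992-293486 were lower, with sums of 8.21, 3.99, 9.46 and 11.3 TPM in the libraries labelled control, against 34.3, 29.5, 49.6 and 37.0 TPM in the libraries labelled exosome knockdown. Neither run had overlapping groups.

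The 3 strongest members of an end did not always change in the direction most common among its called members. The strongest of all, chr2L:22429376-22429380 (minus strand), had 1089.6, 1473, 985 and 3694 TPM in libraries labelled control 1 to 4, against 1711, 6588, 3341 and 3603 TPM in libraries labelled exosome knockdown 1 to 4. The groups overlapped, since library 4 labelled control lay above 3 libraries of the other group, and edgeR gave a log2 fold change of −1.15 ± 0.47 (SE) with an adjusted p of 0.0631. In this 5 bp wide TC the libraries with sequencing barcode ATC (labelled control 4, labelled exosome knockdown 2) were the highest of both groups. Those with barcode ACG (labelled control 3, labelled exosome knockdown 1) were the lowest. This order was seen in the data, and whether the barcode contributed to it was not tested. Between libraries of the same barcode the log2 ratio was −0.80 for ACG, −0.83 for ATC, −1.62 for CTT and −1.29 for GAT, negative in 4 of 4, and with the barcode as a block, an alternative chosen after the data were seen, the edgeR adjusted p was 0.000705. The call was also gained with the replicate block (0.0117), a minimum of 10 tags (0.00872) and DESeq2 (0.0433), and without library 4 labelled control (0.00370) or library 1 labelled exosome knockdown (0.0307), while under the other alternatives the adjusted p was 0.0745 to 0.244.

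A second narrow TC on 2L, chr2L:22247822-22247827 (minus strand), showed the same order of libraries, with 192, 318, 182 and 739 TPM in libraries labelled control 1 to 4, against 281, 879.9, 361 and 455 TPM in libraries labelled exosome knockdown 1 to 4. It was not called (log2 fold change −0.55 ± 0.47 (SE), edgeR adjusted p = 0.371), and with the barcode as a block the adjusted p was 0.0166. This order, ATC highest and ACG lowest in both groups, occurred in 5 of the 131 members of 10 TPM or more and in 0.468% to 0.839% of other TCs of that level. The third, chr2L:22354291-22354357 (plus strand), had 757, 784, 854 and 724 TPM in libraries labelled control 1 to 4, against 411, 356, 379 and 429.6 TPM in libraries labelled exosome knockdown 1 to 4. Its groups stood apart, with a log2 fold change of 0.95 ± 0.15 (SE, edgeR adjusted p = 0.000244).

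On 3L the strongest member, chr3L:23332422-23332451 (plus strand), had 649, 642, 744 and 624 TPM in libraries labelled control 1 to 4, against 578, 500.4, 550.3 and 421 TPM in libraries labelled exosome knockdown 1 to 4. The groups did not overlap (exact permutation p = 0.0286, two-sided, the smallest that 4 against 4 allows), but the edgeR log2 fold change of 0.33 ± 0.17 (SE) was not called (adjusted p = 0.127). The next, chr3L:24530467-24530528 and chr3L:24021622-24021646 (both plus strand), averaged 327 ± 92.1 and 261 ± 40.2 TPM in the libraries labelled control, against 185 ± 24.2 and 153 ± 18.6 TPM in the libraries labelled exosome knockdown (SD, n = 4 each). Both rose, by log2 values of 0.75 and 0.71 (edgeR adjusted p = 0.0104 and 0.00644), with no overlap.

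X had weaker leading members. Its strongest, chrX:22257019-22257023 (minus strand), had 302, 241, 279 and 152 TPM in libraries labelled control 1 to 4, against 215, 194, 231 and 114 TPM in libraries labelled exosome knockdown 1 to 4. These overlapped and were not called (log2 fold change 0.32 ± 0.27 (SE), edgeR adjusted p = 0.356). The second, chrX:22415332-22415348 (plus strand), was lower, with 67.8 ± 5.71 TPM in the libraries labelled control, against 93.0 ± 14.3 TPM in the libraries labelled exosome knockdown (SD, n = 4 each), at a log2 fold change of −0.49 ± 0.16 (SE, edgeR adjusted p = 0.0275). Its groups overlapped slightly, with library 1 labelled control at 74.9 TPM and library 2 labelled exosome knockdown at 74.3 TPM (exact permutation p = 0.0571, two-sided). Without library 3 or 4 labelled control or library 3 labelled exosome knockdown the adjusted p was 0.0578 to 0.0693 and the call was lost. The third, chrX:21942183-21942214 (minus strand), averaged 44.6 ± 4.04 TPM in the libraries labelled control, against 42.7 ± 8.51 TPM in the libraries labelled exosome knockdown (SD, n = 4 each), and was not called (edgeR adjusted p = 0.893).

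Of the 3 leading members on 3R, the strongest was not called and the others were lower. At chr3R:228778-228810 (plus strand) the levels were 845, 952, 1061 and 925 TPM in libraries labelled control 1 to 4, against 1174, 940.2, 1048 and 975 TPM in libraries labelled exosome knockdown 1 to 4, not called at an edgeR adjusted p of 0.394. The narrow TC at chr3R:60943-60947 (plus strand) had 158, 130.0, 128 and 293 TPM in the libraries labelled control, against 545, 530.3, 723 and 684 TPM in the libraries labelled exosome knockdown. Every library of the first group lay below every library of the second, with a log2 fold change of −1.85 ± 0.26 (SE, edgeR adjusted p = 0.000107). The third, the single position chr3R:259608 (minus strand), averaged 151 ± 57.6 TPM in the libraries labelled control, against 290.1 ± 98.1 TPM in the libraries labelled exosome knockdown (SD, n = 4 each). Its groups overlapped, and the call (edgeR adjusted p = 0.0258) was lost without library 1, 2 or 3 labelled control or library 2 labelled exosome knockdown, at adjusted p of 0.0533 to 0.0866.

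**Figure D5:**
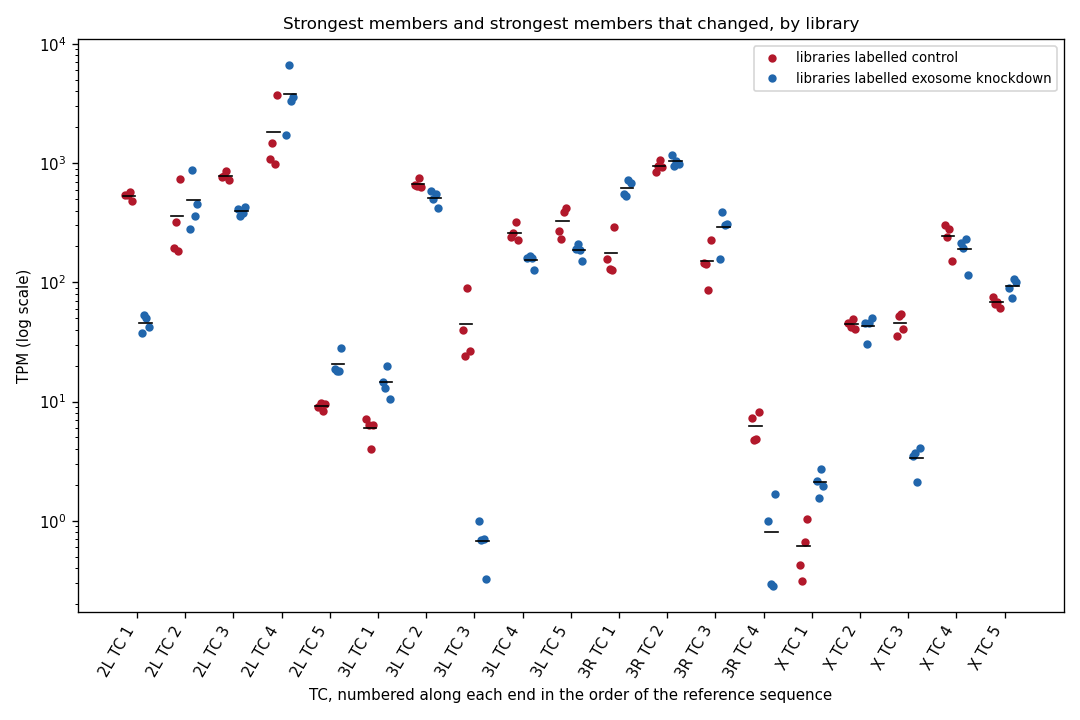
TPM (vertical axis, log scale) in each library of the 3 strongest members of each end and of the strongest members that rose 4-fold or fell 2-fold or more, numbered along each end in the order of the reference sequence, with libraries labelled control left of libraries labelled exosome knockdown and a bar at the mean of 4. The first TC on 2L, chr2L:22192046-22192111, stands at 484 to 569 TPM, against 37.9 to 53.7 TPM, while the TC at chr2L:22429376-22429380, spreads from 985 to 3694 TPM and overlaps the 1711 to 6588 TPM of the other group.

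The largest rises and falls of each end were picked among called members of 1 TPM or more whose groups did not overlap. The call and the lack of overlap were thus conditions of the choice. On 2L and 3L the largest rises rested on groups with few or no tags. At chr3L:23582208-23582251 and chr3L:23581926-23581978 (both minus strand) no library labelled exosome knockdown held a tag. The first had 1.91, 2.23, 2.76 and 2.64 TPM in libraries labelled control 1 to 4, against 0 in all 4 libraries labelled exosome knockdown. Set against a floor of 3 tags over that group, it was at least 121-fold higher and its neighbour at least 106-fold higher.

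On 2L, chr2L:22820198-22820200 (minus strand), inside the cluster above, had 0.742, 1.65, 5.63 and 0.136 TPM in libraries labelled control 1 to 4 and 0 in the 4 libraries labelled exosome knockdown, at least 111-fold higher over the same floor. Library 3 labelled control held most of its tags. At chr2L:22174617-22174636 (minus strand) the libraries labelled control had 3.04, 3.86, 4.40 and 5.24 TPM, against 0, 0.0298, 0 and 0 TPM in the libraries labelled exosome knockdown. These are 679 tags against 1 tag, a ratio of 625 with a 95% exact interval of 112 to 24719 that covers counting error alone. In all, 33 of 1253 members were without a tag in the libraries labelled exosome knockdown (12 on 2L, 18 on 3L, 2 on X, 1 on 3R) and 0 had none in the libraries labelled control. Of all 58844 TCs, 438 were without a tag in the libraries labelled exosome knockdown and 2 in the libraries labelled control. The medians of the ends were the same with the 33 members set at their floor. The 0.3 TPM minimum fixed that outcome in advance, so it is no check of the medians.

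Away from the cluster, the strongest members that rose 4-fold or more, again singled out after their values were seen, were chr3L:23689748-23689756 (minus strand), chrX:22114567 (plus strand) and chr3R:383807 (minus strand), with log2 fold changes of 5.95, 3.72 and 2.92 (edgeR adjusted p = 3.96e-06, 2.03e-06 and 0.000431). Library 3 labelled control held the most tags of the first, at 89.4 TPM, against 24.1 to 39.6 TPM in the other libraries labelled control and 0.328 to 1.00 TPM in the libraries labelled exosome knockdown.

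X held its largest rises at chrX:22241748-22241750 and chrX:22114637-22114656 (both plus strand). The second of these had 14.5, 19.7, 25.7 and 18.7 TPM in libraries labelled control 1 to 4, against 0.957, 0.834, 0.416 and 0.383 TPM in libraries labelled exosome knockdown 1 to 4. Its log2 fold change was 4.86 ± 0.37 (SE, edgeR adjusted p = 2.54e-06, with the call a condition of the choice).

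Some members of 3R rose as well, 18 of the 52 in the first 100 kb from the boundary and 26 in the next 100 kb. At chr3R:394396-394498 (plus strand) levels were 3.22, 2.44, 2.80 and 3.56 TPM in libraries labelled control 1 to 4, against 0.0911, 0.0894, 0 and 0.0547 TPM in libraries labelled exosome knockdown 1 to 4. The log2 fold change was 5.55 ± 0.49 (SE, edgeR adjusted p = 6.0e-06), and the second largest, chr3R:342674-342678 (plus strand), rose by 4.61 ± 0.70 (SE, edgeR adjusted p = 0.000212). These 2 were 5.60 kb and 57.3 kb beyond the boundary.

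The largest fall of any end was also on 3R. At chr3R:223255-223269 (minus strand) the libraries labelled control had 1.33, 1.05, 0.410 and 1.63 TPM, against 19.4, 28.7, 28.2 and 23.5 TPM in the libraries labelled exosome knockdown. Its log2 fold change was −4.54 ± 0.39 (SE, edgeR adjusted p = 5.28e-06). As with the rises, falls were picked among called members without overlap. The single position chr3R:68457 (minus strand) fell by 2.95 on the log2 scale (edgeR adjusted p = 7.28e-05), to 1.38 ± 0.818 TPM in the libraries labelled control, against 10.3 ± 2.10 TPM in the libraries labelled exosome knockdown (SD, n = 4 each).

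Falls in the other ends were smaller. On 3L, chr3L:23177133-23177160 and chr3L:23177508-23177509 (both plus strand) fell by 1.44 and 1.31, and belong to 1 run of 9 members of which 6 were lower and 0 higher. On 2L, chr2L:22430933 (plus strand) and chr2L:22428710-22428711 (minus strand) fell by 1.22 and 1.101. On X, 1 member met the rule, chrX:21904094-21904220 (minus strand), which fell by 1.84 and lay 4.09 kb from the boundary. These 5, picked among called members without overlap, had edgeR adjusted p of 0.000423 to 0.00484.

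Divergent initiation, the pairing of a plus strand TC with a minus strand TC upstream of it, was about as common in the ends as elsewhere. Within 250 bp, 190 of 650 plus strand members (29.2%) had such a partner, against 26.1% of all plus strand TCs. The share was 36.0% on 2L, 24.6% on 3L, 25.4% on 3R and 19.2% on X, and within 500 bp it was 36.8%, against 40.1% of all. Members also resembled other TCs in width, with a median of 22 bp, against 23 bp over all TCs, and in level, with a median of 0.81 TPM, against 0.72 TPM.

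In the pair with the strongest weaker strand on 2L, the plus strand TC chr2L:22354291-22354357 had its partner at chr2L:22354079-22354100, summits 248 bp apart. The minus strand took 12.8%, 9.70%, 7.06% and 11.9% of the pair's tags in libraries labelled control 1 to 4, against 2.02%, 1.45%, 1.38% and 1.44% in libraries labelled exosome knockdown 1 to 4. On 3L, the minus strand of chr3L:24224613-24224628 and chr3L:24224706-24224728 took 48.8%, 41.5%, 56.2% and 71.6% in the libraries labelled control, against 3.30%, 2.15%, 0.698% and 1.72% in the libraries labelled exosome knockdown. Neither pair overlapped between groups.

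Both of those differences had an exact permutation p of 0.0286 (two-sided), the smallest possible, which became 0.0571 after Benjamini-Hochberg adjustment over the 4 pairs compared and so did not pass 0.05. Both strands of each pair were higher, the minus strand by log2 values of 3.79 on 2L and 7.07 on 3L, against 0.95 on both plus strands.

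The pairs on 3R and X kept their balance of strands within the spread of the libraries. On 3R, the minus strand at chr3R:163375-163433 took 44.7% ± 5.17 in the libraries labelled control, against 42.6% ± 1.15 in the libraries labelled exosome knockdown (SD, n = 4 each, exact permutation p = 0.514). Both strands of that pair fell, the minus by 1.17 and the plus (chr3R:163483-163532) by 1.27 on the log2 scale (edgeR adjusted p = 0.000115 and 0.000126). On X, the minus strand at chrX:21942254 took 38.3% ± 12.2, against 29.7% ± 4.47 in the libraries labelled exosome knockdown (exact permutation p = 0.314, n = 4 each), and neither strand was called.

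A pair of loci in the ends carried gene names in the study's table of RT-qPCR targets. The study drew both at random from its unidirectional stable class, whose RNA on the stronger strand it describes as insensitive to the exosome. By RT-qPCR, normalized to Act5C, the study measured more RNA after knockdown than in control at both loci, in every biological replicate. The TPM given here are scaled to library totals instead. At the Suv3 DHS (chr3R:137141-137290), a gene for an RNA helicase of mitochondria, the plus strand member chr3R:137250-137319 had 18.9, 16.9, 24.6 and 17.8 TPM in libraries labelled control 1 to 4, against 26.5, 20.3, 23.3 and 20.0 TPM in libraries labelled exosome knockdown 1 to 4. The groups overlapped and it was not called (log2 fold change −0.26 ± 0.18 (SE), edgeR adjusted p = 0.277). At the CG33217 DHS (chr3L:23119041-23119190) the plus strand member chr3L:23119132-23119177 had 51.0, 47.8, 61.4 and 39.6 TPM in libraries labelled control 1 to 4, against 42.7, 33.2, 45.2 and 32.3 TPM in libraries labelled exosome knockdown 1 to 4. It was not called either (log2 fold change 0.34 ± 0.19 (SE), edgeR adjusted p = 0.172). No minus strand TC of 0.3 TPM lay within 500 bp of either midpoint, where each locus held 1 TC in all.

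At the level threshold, the member just inside was chr3R:27985-28004 (plus strand) with a mean of 0.3004 TPM, and the TC just outside was chr3L:23177938 (plus strand) with 0.2999 TPM. The members nearest the boundaries lay 19.3 kb inside on 2L, 17.8 kb on 3L, 3.01 kb on 3R and 0.143 kb on X. The last, chrX:21900143-21900177 (plus strand), averaged 0.299 ± 0.0976 TPM in the libraries labelled control, against 0.560 ± 0.117 TPM in the libraries labelled exosome knockdown (SD, n = 4 each), with an edgeR adjusted p of 0.0458 that exceeded 0.05 under 11 alternatives, at 0.0595 to 0.137. The other 3 were not called, with adjusted p of 0.165, 0.293 and 0.682.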

How the data were processed

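Per the labels and the study's methods, CAGE libraries were sequenced in repeated runs for depth, trimmed, mapped uniquely with Bowtie 1.1.1 to dm3 and deposited by the authors as stranded counts of tag 5′ ends at each base, without normalization. No removal of duplicate reads is named, so intervals and floors cover counting error only. Strand by strand, positions holding 2 or more tags in at least 1 library were joined across gaps of up to 20 bp, positions below 0.1 of the pooled summit were dropped, and the remainder was joined anew. TPM is tags over the library total. TCs of at least 0.3 TPM on average were tested together with edgeR 4.0.16 (quasi-likelihood, TMM factors 0.901 to 1.09, R 4.3.3) with Benjamini-Hochberg adjustment at 0.05, and the self-test used simulated counts. Single values were compared by exact permutation. DESeq2 1.42.0 was an alternative. Clustering and plots used Python 3.11.15. A sequence of the dm3 genome and its annotation were not used here, so that TCs carry no gene names beyond the pair of named DHSs.

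The members, lists and named items were chosen with earlier results of these data known. Named TCs are the strongest at RT-qPCR loci, the 3 strongest per end, the 2 largest rises and falls per end among called TCs of 1 TPM or more with no overlap, the divergent pair per end with the strongest weaker strand, and those nearest the threshold and boundaries. Replicate numbers of the labels were not taken as pairs in the fits reported.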

Additional observations from a re-analysis of the deposited data

Results flagged for a closer look

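Over 128 groups of 4 values, 7 held a library far from the other 3 by Dixon's test at 95%, where chance flags about 1 in 20 (6.4). At chr2L:22174617-22174636 the single tag of library 2 labelled exosome knockdown (0.0298 TPM) stood alone among zeros. At chr2L:22430933 library 4 labelled exosome knockdown was high at 28.2 TPM. At chr3L:22967775 library 4 labelled control was high at 1.17 TPM, and at chr3L:24021622-24021646 library 4 labelled exosome knockdown was low at 126 TPM. Tags of the 2L end outside TCs of 10 TPM or more stood at 1062 TPM in library 3 labelled exosome knockdown, above the 1033 to 1036 TPM of the others. All tags of the 3L end stood at 3988 TPM in library 3 labelled control. The minus strand share of the divergent pair on 2L was 2.02% in library 1 labelled exosome knockdown, above the other 3 of that group.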

How the results depend on the processing

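The 683 higher and 131 lower members became 681 and 135 with DESeq2, 689 and 118 with library totals alone, 579 and 106 with no trimming, and 652 to 675 and 106 to 136 without 1 library. With no trimming the members numbered 1055. Genome-wide, 28.8% of TCs were higher and 16.8% lower with DESeq2, and 28.5% and 14.8% with library totals alone. These shares were 29.5% and 18.1% with no trimming, and 25.9% to 27.8% and 12.6% to 16.3% without 1 library. With a mean of at least 1 TPM there were 324 higher and 66 lower members (195 higher on 2L, 85 on 3L, 25 on 3R and 19 on X, 50 lower on 3R), at 156 members per Mb. With at least 10 tags in place of the TPM minimum 1980.0 were higher (960.0 on 2L, 677 on 3L, 201 on X) and 185 lower, and on 3R 142 were higher and 156 lower, in place of 52 and 105. Of 4827 such TCs in the ends 41.0% were higher and 3.83% lower, beside 18.6% and 5.82% genome-wide. With boundaries moved 200 kb towards the centromere 475 of 779 members (61.0%) were higher and 70 (8.99%) lower, beside 28.2% and 16.5% genome-wide. On 2L 235 of 329 (71.4%) were higher, and on 3R 8 of 134 (5.97%) were higher and 51 (38.1%) lower. The density was then 287 per Mb. The median share of the level missing from the libraries labelled exosome knockdown was 0.778 over all members (0.632 with the boundaries as given). The difference in the share of tags was 0.122 percentage points, against 0.369 as reported and 0.659 with the tags of the 4 arms as denominator. The divergent share of 29.2% became 24.0% at 1 TPM, 36.8% within 500 bp and 17.01% with no trimming. These settings change which TCs are counted. Among the named TCs, 4 that were not called changed sign when 1 library was left out. Their log2 fold changes spanned −1.03 to 0.11 at chr3L:22967775 (positive without library 2 labelled exosome knockdown), −0.57 to 0.10 at chr3R:27985-28004 (positive without library 3 labelled exosome knockdown), −0.284 to 0.0291 at chr3R:396995-397004 (positive without library 3 labelled control) and −0.0606 to 0.0915 at chrX:21942183-21942214 (negative without library 2 labelled exosome knockdown). With the replicate block 713 members (56.9%) were higher and 143 (11.4%) lower, beside 29.8% and 18.2% genome-wide. Deviations of same-numbered libraries correlated at 0.0661, 0.161, 0.227 and 0.367 over all TCs, the first under the 0.1 asked of every pair, and at 0.281, 0.322, 0.266 and 0.488 over the members. Those of libraries with the same barcode (CTT, GAT, ACG and ATC) correlated at −0.0691, −0.352, −0.154 and −0.306 over the members. Over the 28 members of 5 bp or less and 10 TPM or more they correlated at 0.472, 0.267, 0.614 and 0.00228. Of 8 libraries, 7 over all TCs and 8 over the members correlated best with their own number, a hint of pairing from the data that the labels do not state. With the barcode as a block, chosen after the data were seen as was leaving 1 library out of the strand shares, 649 were higher and 117 lower. That is 51.8% and 9.34% of members, beside 26.4% and 14.0% genome-wide. Tags per TC limit the weak members, 705 of which averaged under 1 TPM.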
